A study of Mus musculus with 70 samples.

Results

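The comparison covers the pituitary gland of *Thrb*-KO and wild-type (WT) mice that both received T3, the active thyroid hormone, in excess. Its members are the 9 RNA-seq libraries of hyperthyroid pituitary, 4 WT and 5 *Thrb*-KO, out of 18 RNA-seq libraries and 70 samples in all. Every gene in the RNA-seq table was taken, with the transcript of highest mean level standing for each of 22835 genes, and 13145 genes above 1 CPM (a read count scaled to the reads of its library) in all 18 libraries were tested. The mice of the RNA-seq libraries were males of 2 to 4 months on a C57BL/6J background, and each library came from a pool of 3 pituitaries. All of these mice, controls included, drank 0.05% methimazole (MMI) with 1% KClO4 for 4 to 5 weeks to stop their own thyroid. The hyperthyroid mice also drank 0.5 µg/ml T3 in the last week. The *Thrb*-KO mice carried a germline deletion in every cell, so differences can stem from any tissue and from development. Libraries were numbered without a statement of separate cages or days, and p-values measure the spread between these pools.

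*Thrb* encodes thyroid hormone receptor β (TRβ), a nuclear receptor that binds DNA and, once T3 is bound, turns target genes on or off. In the pituitary it is known for the feedback by which T3 shuts down thyrotropin (TSH), the hormone of thyrotroph cells. *Thra* encodes the related receptor TRα, which *Thrb*-KO mice keep.

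Read totals were 24662318 to 44458073 per WT library and 21453548 to 41964574 per *Thrb*-KO library, where 3 reads correspond to at most 0.14 CPM. WT replicate 3 stood apart, with correlations of log2(CPM + 1) of 0.915 to 0.959 with the other WT libraries against 0.971 to 0.995 among those. It held the highest *Gh* (159094 CPM) and *Prl* (53184 CPM) of the 9 libraries, and results that rest on it are given with and without it. All 18 libraries also fell into 2 sets, replicates 1 and 2 against 3 to 5, most visible in *Lars2*, at 2571 to 3420 CPM in the former and 53.2 to 95.1 CPM in the latter, and each set held both genotypes. The tissue label fitted its markers: somatotroph markers summed to 87682 to 159343 CPM in WT and 83188 to 115381 CPM in *Thrb*-KO libraries. In contrast, the liver genes *Alb* and *Fgb* and the skeletal muscle genes *Ckm*, *Acta1*, *Myh4* and *Tnnt3* stayed below 1 CPM in all 9 hyperthyroid libraries. The other liver genes of the list, *Apoa1* and *Ttr*, did not. The 4 liver genes summed to 1.346 to 4.825 CPM in WT, highest in replicate 3, and to 1.331 to 2.254 CPM in *Thrb*-KO libraries.

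In hyperthyroid pituitary, 334 genes (2.54% of those tested) were higher and 305 genes (2.32%) were lower in *Thrb*-KO than in WT mice, 639 (4.86%) in all. A gene was called where limma gave an adjusted p below 0.05 together with a 1.5-fold or larger difference. The changes downward were larger: 17 of the lower genes differed by 4-fold or more against 6 of the higher genes, and 109 against 70 by 2-fold or more. The 4 WT and 5 *Thrb*-KO libraries did not overlap for 300 of the 334 higher genes and 260 of the 305 lower genes, where 7.61% and 3.69% of all genes tested (11.3% in either direction) were separated in these directions. All 639 genes kept their sign in each library set fitted alone, which their call in the same libraries makes likely in advance. Called in both sets alone were 219 of the higher genes (65.6%) and 210 of the lower genes (68.9%). Without WT replicate 3, 264 genes were higher and 387 lower, of which 241 and 282 belonged to the genes called with it. Scaling by TMM, which moved the median difference of all genes from 0.069 to 0.002 on the log2 scale, turned the split into 272 higher and 386 lower. These kept 271 of the 334 higher genes and all 305 lower genes.

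**Figure D1:**
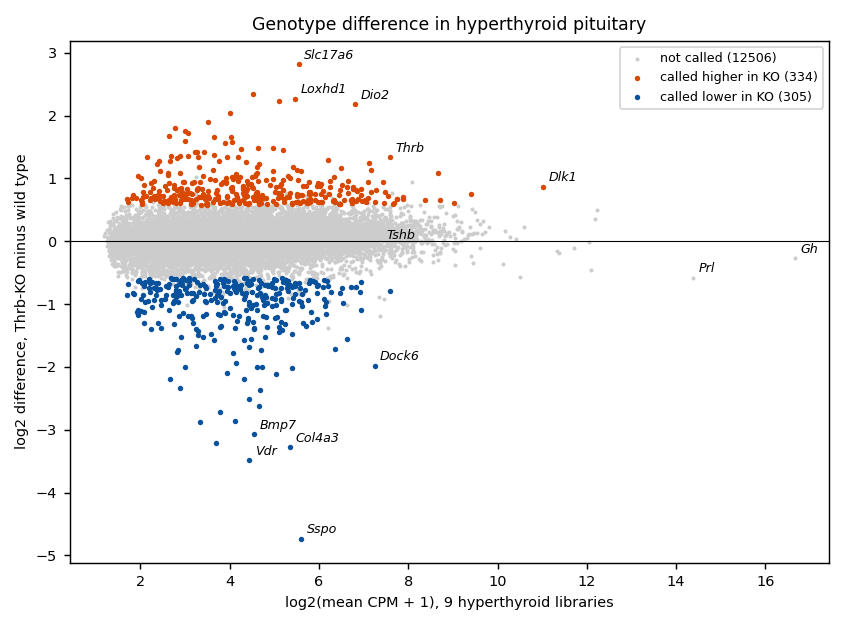
Each point is a gene, placed by its mean level over the 9 hyperthyroid libraries, as log2 of the mean CPM + 1, and by its log2 difference, *Thrb*-KO minus WT. The 334 genes called higher lie above and the 305 called lower lie below 0, and the lower genes reach farther from 0, to -4.74 for *Sspo* against 2.81 for *Slc17a6*.

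The targeted gene itself was not lower in *Thrb*-KO libraries. *Thrb* stood at 124, 117, 72.4 and 103 CPM in WT and at 288, 301, 239, 245 and 228 CPM in *Thrb*-KO libraries, with no overlap. The difference was 2.52-fold (log2 1.33, SE 0.13, adjusted p = 1.42e-06, limma), or log2 1.17 without WT replicate 3. Reads were counted over the whole transcript, so they do not show whether the RNA of the deleted allele encodes a receptor, and they do not check the labels. In hypothyroid mice *Thrb* stood at 257 CPM in WT and 271 CPM in *Thrb*-KO libraries (means, n = 4 and n = 5), and the genotype difference was larger under T3 than under MMI by 1.26 on the log2 scale (adjusted p = 0.000322). *Thra* stood at 46.8 to 61.8 CPM in WT and at 73.9 to 87.5 CPM in *Thrb*-KO libraries, a 1.43-fold difference below the 1.5-fold limit (adjusted p = 0.00105). Of the 22 receptors, RXR partners and coregulators tested, *Thrb* alone was called, where 4.86% of all genes tested were called.

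Among the genes of the thyroid axis, *Dio2* showed the widest separation. It encodes deiodinase 2, which makes T3 from its precursor T4. It stood at 32.9, 38.2, 37.2 and 39.3 CPM in WT and at 182, 207, 159, 174 and 137 CPM in *Thrb*-KO libraries. The lowest *Thrb*-KO library was thus far above the highest WT library, and the difference was 4.52-fold (log2 2.18, SE 0.12, adjusted p = 1.05e-09). *Trhr*, the receptor for hypothalamic TRH on thyrotrophs, stood at 2.29, 3.52, 2.96 and 2.75 CPM in WT and at 5.30, 6.07, 4.72, 5.68 and 4.43 CPM in *Thrb*-KO libraries. It was 1.61-fold higher (adjusted p = 0.000657) at levels near the lower limit of the test. *Slco4a1*, an organic anion transporter that can carry thyroid hormone, stood at 4.42 to 4.66 CPM in WT and at 6.87 to 9.48 CPM in *Thrb*-KO libraries, 1.66-fold higher (adjusted p = 0.000111). *Pou1f1*, the transcription factor of the somatotroph, lactotroph and thyrotroph lineages, was 1.55-fold higher at 144 to 204 CPM against 96.1 to 135 CPM (adjusted p = 0.0176). Its call ended without WT replicate 3 (log2 0.54, adjusted p = 0.0554) without *Thrb*-KO replicate 5 (log2 0.58) and with TMM scaling (log2 0.56).

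The subunits of TSH did not separate the genotypes. *Tshb* stood at 76.5, 40.5, 422 and 271 CPM in WT and at 139, 84.9, 138, 169 and 149 CPM in *Thrb*-KO libraries, and the *Thrb*-KO libraries lay inside the WT range (log2 difference -0.05, SE 0.48, adjusted p = 0.959). The direction turned between library sets. Among replicates 1 and 2 *Tshb* was higher in *Thrb*-KO by log2 0.95 (adjusted p = 0.00834), and among replicates 3 to 5 it was lower (log2 -1.15, adjusted p = 0.00182, limma). Without WT replicate 3 the pooled difference was log2 0.48 (adjusted p = 0.561). *Cga*, the subunit that TSH shares with the gonadotropins, stood at 1153 to 1652 CPM in WT and 1284 to 1436 CPM in *Thrb*-KO libraries (log2 0.04, adjusted p = 0.907). *Dio1*, a deiodinase abundant in liver, was at 1.29 CPM or less in all 9 libraries. In all, 2 of 10 tested genes of TSH and TRH signalling (*Trhr*, *Pou1f1*) and 2 of 8 tested deiodinases and transporters (*Dio2*, *Slco4a1*) rose and none fell, with medians of 0.195 and 0.080 beside 0.069 over all genes. The shares over all genes tested were 2.54% higher and 2.32% lower.

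**Figure D2:**
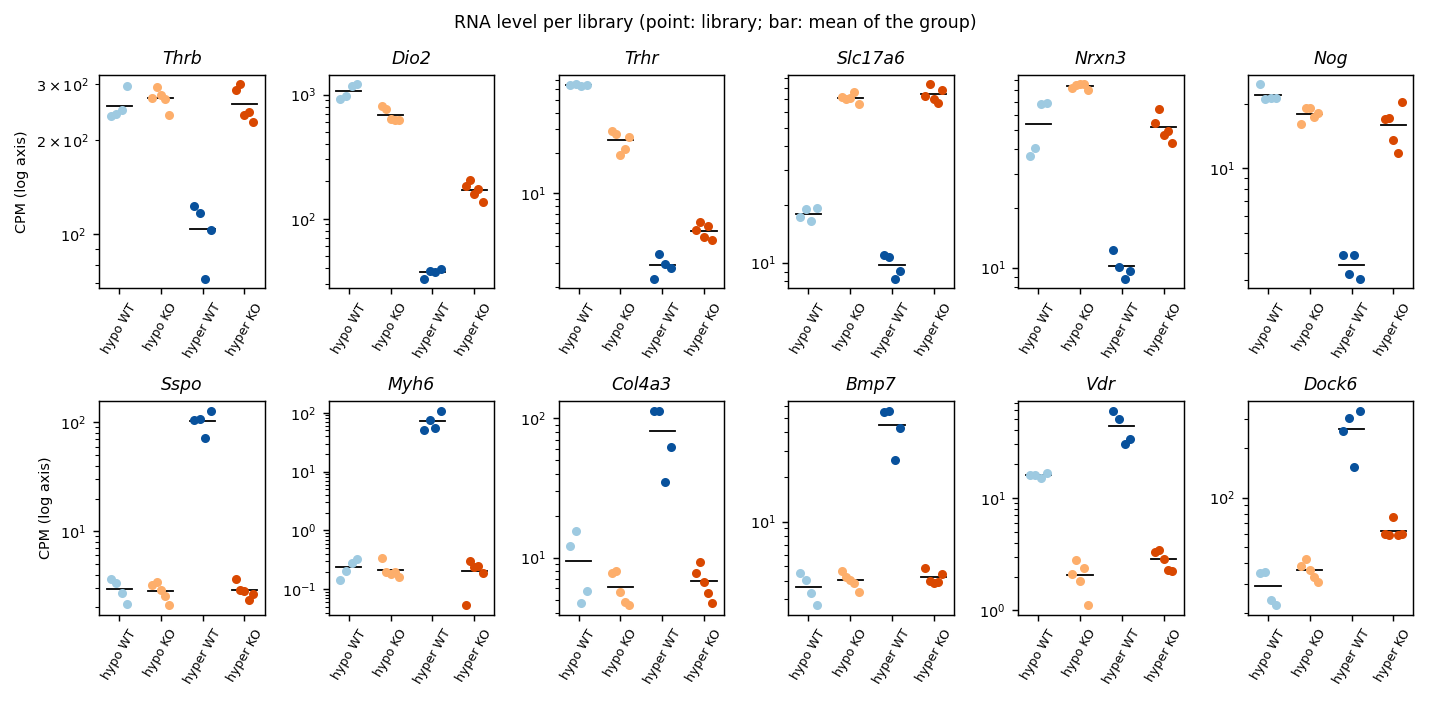
CPM on a log axis in each library of hypothyroid (hypo) and hyperthyroid (hyper) WT and *Thrb*-KO (KO) pituitary, with a bar at the mean of the group, for *Thrb* and 5 genes higher (top) and 6 genes lower (bottom) in hyperthyroid *Thrb*-KO libraries. The hyperthyroid WT libraries sit apart from the hyperthyroid *Thrb*-KO libraries in every panel, as for *Dio2*, at 32.9 to 39.3 against 137 to 207 CPM.

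Several of the genes furthest below WT had hypothyroid WT levels close to those of *Thrb*-KO libraries. *Sspo*, which encodes SCO-spondin, a large secreted protein of the subcommissural organ, stood at 105, 109, 72.6 and 129 CPM in WT and at 3.61, 2.87, 2.84, 2.37 and 2.66 CPM in *Thrb*-KO libraries. It was 26.6-fold lower in *Thrb*-KO (log2 -4.74, SE 0.15, adjusted p = 4.49e-13), and in hypothyroid mice it averaged 2.97 CPM in WT and 2.84 CPM in *Thrb*-KO libraries. *Upk3a*, a uroplakin of the urothelium, averaged 24.6 ± 3.05 CPM in WT (SD, n = 4) and 1.76 ± 0.433 CPM in *Thrb*-KO libraries (SD, n = 5), a 9.29-fold difference, and 2.13 and 1.50 CPM in the hypothyroid groups. *Cdc42ep2*, an effector of the GTPase Cdc42, averaged 25.2 ± 5.87 against 2.89 ± 0.291 CPM, a 6.61-fold difference. *Vdr*, the vitamin D receptor, stood at 59.6, 49.8, 30.0 and 33.0 CPM in WT and at 3.31, 3.45, 2.86, 2.30 and 2.24 CPM in *Thrb*-KO libraries, 11.2-fold lower (adjusted p = 6.92e-10). It averaged 15.8 CPM in hypothyroid WT and 2.05 CPM in hypothyroid *Thrb*-KO libraries, so that the genotypes also differed without T3 (log2 -2.49, adjusted p = 1.05e-07).

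Myosin heavy chains of heart and slow muscle were among these genes. *Myh6*, the α-cardiac myosin heavy chain, stood at 51.2, 73.9, 54.8 and 109 CPM in WT and at 0.0543, 0.306, 0.238, 0.252 and 0.186 CPM in *Thrb*-KO libraries. The lowest of these lies under 3 reads. *Myh6* was outside the main test for its low level in *Thrb*-KO and hypothyroid libraries. In a fit of 14472 genes above 1 CPM in at least 4 libraries it was 58.1-fold lower in *Thrb*-KO (log2 -5.86), given with no test because only its high level in hyperthyroid WT libraries admitted it. It averaged 0.237 CPM in hypothyroid WT and 0.215 CPM in hypothyroid *Thrb*-KO libraries. *Myh7*, the β-cardiac and slow muscle myosin next to it on the chromosome, stood at 46.4, 52.1, 20.9 and 36.9 CPM in WT and at 4.70, 5.15, 6.08, 5.64 and 6.85 CPM in *Thrb*-KO libraries, 5.72-fold lower (adjusted p = 4.79e-08). Both genes were thus high in all 4 WT libraries, although their sequences are alike and reads may be split between them. Skeletal muscle markers summed to 1.02 to 1.70 CPM in WT and 1.23 to 1.77 CPM in *Thrb*-KO libraries, with *Ckm*, *Acta1*, *Myh4* and *Tnnt3* all below 1 CPM. Of 6 myosin heavy chains tested, *Myh7* was the member called, where 4.86% of all genes tested were called.

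Single genes of basement membranes and of bone morphogenetic protein (BMP) signalling were also far apart, while most members of these groups were not called. *Col4a3* and *Col4a4*, neighbouring genes for chains of type IV collagen in basement membranes, were lower together. *Col4a3* stood at 114, 113, 35 and 62.3 CPM in WT and at 4.71 to 9.24 CPM in *Thrb*-KO libraries, 9.72-fold lower (adjusted p = 2.5e-06). *Col4a4* stood at 64.0, 69.1, 22.3 and 33.3 CPM in WT and at 4.38 to 7.25 CPM in *Thrb*-KO libraries, 6.17-fold lower (adjusted p = 2.33e-05). In both, the WT libraries of replicates 1 and 2 were the highest. *Col11a1*, a fibrillar collagen, fell 2.30-fold (34.2 to 53.5 against 15.1 to 18.2 CPM, adjusted p = 1.35e-06). Of 63 tested collagens, laminins and integrins, 4 fell (*Col4a3*, *Col4a4*, *Col11a1* and *Itgal*) and 1 rose (*Col27a1*), with a median of -0.011. Among all genes tested 2.32% fell and 2.54% rose, with a median of 0.069. The call of *Col27a1* ended without WT replicate 3 (log2 0.39) and with TMM scaling (log2 0.57), and that of *Itgal* on leaving out any of 6 of the 9 libraries (log2 -0.53 to -0.57). *Bmp7*, a secreted ligand, stood at 54.7, 55.8, 26.0 and 42.6 CPM in WT and at 3.88 to 4.89 CPM in *Thrb*-KO libraries, 8.42-fold lower (adjusted p = 1.17e-09). In contrast, *Nog*, which encodes the BMP antagonist noggin, stood at 3.91, 3.19, 3.93 and 3.04 CPM in WT and at 17.0, 17.3, 13.7, 11.8 and 20.6 CPM in *Thrb*-KO libraries, 3.74-fold higher (adjusted p = 1.13e-08). *Bmp2*, another ligand, was 1.61-fold higher at 2.62 to 3.84 against 1.07 to 2.17 CPM (adjusted p = 0.00453), and its call ended without WT replicate 4 (log2 0.57). Of 19 tested genes of the gonadotroph and activin system, which holds these factors, *Nog*, *Bmp2* and *Nr5a1* rose and *Bmp7* fell, with a median of 0.035.

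The other genes with the largest falls encode proteins of varied function. *Cngb1*, a subunit of the cyclic nucleotide-gated channel of rods, was 7.37-fold lower at 1.24 to 1.91 CPM against 10.4 to 28.6 CPM in WT. *Rasgrp1*, which activates Ras, was 7.29-fold lower, *Tspan18*, a tetraspanin, 5.15-fold, and *Gpr83*, a G protein-coupled receptor, 5.04-fold (adjusted p = 8.94e-07, 3.7e-08 and 4.03e-08). *Cilp*, a cartilage matrix protein, averaged 56.7 ± 9.01 CPM in WT and 12.3 ± 0.969 CPM in *Thrb*-KO libraries. *Fndc5*, the precursor of irisin, averaged 26.7 ± 2.94 and 7.07 ± 0.994 CPM. *Dock6*, an activator of the GTPases Rac and Cdc42, was the second by reads among the lower genes after *Clmn*, at 252, 303, 153 and 336 CPM in WT and at 60.4, 59.3, 76.2, 59.2 and 60.4 CPM in *Thrb*-KO libraries, 3.94-fold lower (adjusted p = 1.05e-06). Among the other lower genes with many reads, *Clmn* stood at 188 to 325 against 117 to 172 CPM, *Whrn*, a scaffold of hair cell stereocilia, at 129 to 228 against 66.6 to 88.1 CPM, and *Slc6a11*, a GABA transporter, at 136 to 197 against 82.2 to 103 CPM. *Grik3*, a kainate receptor subunit, at 114 to 176 against 79.6 to 90.2 CPM, and *Dmpk*, a kinase, at 118 to 190 against 84.1 to 106 CPM, were also in this group, and the call of *Dmpk* ended without WT replicate 1 (log2 -0.54).

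Besides *Myh6*, further genes below 1 CPM in some libraries lay apart in the fit of 14472 genes, which admitted them because 1 group was high. Of its 1327 genes outside the main test, 74 (5.58%) were higher and 101 (7.61%) lower, 13.2% in all, counts that support nothing for the same reason. *Slc4a5*, a sodium bicarbonate cotransporter, stood at 21.2, 23.7, 10.4 and 13.8 CPM in WT and at 0.513 to 1.39 CPM in *Thrb*-KO libraries, 9.06-fold lower. *Tmem45b* stood at 8.64 to 10.5 CPM in WT and at 0.214 to 0.280 CPM in *Thrb*-KO libraries, 8.80-fold lower. *D830015G02Rik* (7.90 to 14.8 against 0.136 to 0.477 CPM), *Ceacam10* (14.2 to 30.5 against 1.19 to 2.09 CPM) and *C2cd4c* (4.46 to 10.3 against 0.190 to 0.466 CPM) were separated in the same way. *Ceacam16*, a protein of the tectorial membrane of the inner ear, stood at 16.9, 16.7, 14.7 and 16.4 CPM in WT and at 3.94, 4.98, 3.22, 3.03 and 5.73 CPM in *Thrb*-KO libraries, 3.38-fold lower. It averaged 0.305 and 0.436 CPM in hypothyroid WT and *Thrb*-KO libraries, so it was higher in hyperthyroid *Thrb*-KO than in any hypothyroid group mean. Members of the *Ceacam* family share sequence, and reads may be split between them. *Foxo6*, a forkhead transcription factor in the main test, stood at 40.6, 33.0, 26.6 and 37.3 CPM in WT and at 25.3, 20.6, 21.4, 19.9 and 25.5 CPM in *Thrb*-KO libraries. Its groups did not overlap, yet its 1.50-fold difference (log2 -0.58, adjusted p = 0.0182) lay just under the fold limit, and it passed without WT replicate 3 (log2 -0.69, adjusted p = 0.00582), without 3 other libraries left out singly (log2 -0.59 to -0.62) and with the replicate number as a block (log2 -0.59, adjusted p = 0.0119). *Dot1l* (log2 0.32, adjusted p = 0.351) and *Ky* (log2 -0.04, adjusted p = 0.904) overlapped between genotypes.

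The largest rise in the main test was that of *Slc17a6*. *Slc17a6*, the vesicular glutamate transporter VGLUT2, stood at 11, 10.7, 8.27 and 9.11 CPM in WT and at 73.0, 83.8, 70.7, 67.1 and 78.4 CPM in *Thrb*-KO libraries, 7.03-fold higher (log2 2.81, SE 0.09, adjusted p = 4.49e-13). *Nrxn3*, a synaptic adhesion protein, stood at 8.80 to 12.2 CPM in WT and at 43.2 to 64.0 CPM in *Thrb*-KO libraries, 4.71-fold higher (adjusted p = 3.97e-08). *Loxhd1*, known from hair cells, stood at 22.8, 18.5, 7.91 and 8.38 CPM in WT and at 61.0 to 71.6 CPM in *Thrb*-KO libraries, 4.81-fold higher (adjusted p = 3.05e-06), and the WT levels followed the library sets. *Gucy2f*, a retinal guanylate cyclase, was 5.09-fold higher at 28.8 to 38.7 against 2.92 to 10.1 CPM. *Mchr1*, the receptor for melanin-concentrating hormone, was 3.36-fold higher at 9.14 to 11.5 against 1.92 to 2.96 CPM. *Ehf*, an ETS transcription factor of epithelia, was 3.48-fold higher at 7.27 to 12.7 against 1.73 to 2.11 CPM. *Tmem200a* (4.10-fold), *Cdhr3*, a cadherin (3.31-fold), *Gbgt1*, a glycosyltransferase (3.21-fold), and *Odz1*, a teneurin (3.16-fold), completed, with *Dio2* and *Nog*, the 12 largest rises among genes of the main test whose groups did not overlap.

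Below 1 CPM in some libraries, *Cnr1*, the cannabinoid receptor of neurons, stood at 0.406 to 0.714 CPM in WT and at 3.73 to 7.04 CPM in *Thrb*-KO libraries. *Il3ra*, a subunit of the interleukin receptor, stood at 0.770 to 1.10 against 5.27 to 8.44 CPM, and *F5*, a clotting factor, at 0.122 to 1.04 against 3.67 to 5.49 CPM. *Tgm6*, *Ankrd34b* and *Mmp20* were likewise separated, at 0.122 to 0.714 against 4.34 to 5.57 CPM, 0.467 to 0.838 against 5.91 to 10.2 CPM, and 0.288 to 1.55 against 2.62 to 5.62 CPM. Their hyperthyroid WT levels were at most 1.55 CPM. The means in hypothyroid WT and *Thrb*-KO libraries were 2.56 and 16.2 CPM for *Cnr1*, 2.20 and 6.97 CPM for *Il3ra*, and 0.438 and 6.03 CPM for *F5*. For *Tgm6*, *Ankrd34b* and *Mmp20* they were 1.75 and 7.47, 3.91 and 8.64, and 4.41 and 7.11 CPM. These genes thus had higher *Thrb*-KO means in hypothyroid mice too.

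The higher genes with the most reads included *Dlk1* and *Rian*, genes of the imprinted region of mouse chromosome 12. *Dlk1* stood at 1605, 1360, 1246 and 1501 CPM in WT and at 2630, 2426, 2718, 2353 and 2892 CPM in *Thrb*-KO libraries, 1.83-fold higher (adjusted p = 1.74e-05). *Rian*, a noncoding RNA, stood at 478 to 504 CPM in WT and at 776 to 909 CPM in *Thrb*-KO libraries, 1.69-fold higher (adjusted p = 2.14e-05). *Htatsf1* was 2.12-fold higher at 438 to 605 against 245 to 256 CPM. *Pld3* and *Prnp*, the prion protein, were each 1.58-fold higher, at 467 to 550 against 285 to 338 CPM and at 357 to 432 against 233 to 279 CPM. Both fell under the fold limit with DESeq2 size factors (log2 0.57 and 0.58).

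Ion channel genes moved in both directions. Of 50 tested potassium channel genes 6 fell and 3 rose, and of 31 tested voltage-gated sodium and calcium channel genes 5 fell and 1 rose, with medians of 0.069 and 0.049 beside 0.069 over all genes. Over all genes tested 2.54% rose and 2.32% fell. Without WT replicate 3 these medians were -0.033 and -0.080. *Kcnk5*, a two-pore domain channel, stood at 11, 9.23, 10.6 and 11.9 CPM in WT and at 3.04, 2.00, 2.48, 2.55 and 2.14 CPM in *Thrb*-KO libraries, 3.40-fold lower (adjusted p = 6.98e-08). *Kcnj11*, the pore subunit of the ATP-sensitive potassium channel, stood at 15.9, 14.2, 10.2 and 13.6 CPM in WT and at 3.73 to 5.30 CPM in *Thrb*-KO libraries, 2.63-fold lower (adjusted p = 6.44e-07). *Abcc8*, which encodes the sulfonylurea receptor of the same channel and was picked after its values were seen, stood at 13.1 to 21.0 CPM in WT and at 5.13 to 6.43 CPM in *Thrb*-KO libraries, 2.79-fold lower (adjusted p = 1.56e-07). Both subunits of this channel were as low in hypothyroid *Thrb*-KO libraries, with means of 3.57 and 5.67 CPM for *Kcnj11* and *Abcc8*.

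Among the other channels, *Kcnt1* fell from 54.1 to 96.7 CPM in WT to 33.3 to 40.0 CPM, and *Kcnj10* from 13.2 to 18.0 CPM to 7.46 to 10.2 CPM, a call that ended without WT replicate 2 (log2 -0.58). *Cacng5* and *Cacng2*, of the family of calcium channel γ subunits, were 2.26-fold and 2.29-fold lower (adjusted p = 9.05e-07 and 2.78e-06). *Cacna1a*, the pore of P/Q-type calcium channels, fell 1.71-fold at 57.4 to 72.0 against 34.6 to 40.7 CPM. *Scn11a* went the other way, at 2.92 to 5.28 CPM in WT and 10.3 to 13.8 CPM in *Thrb*-KO libraries, 2.52-fold higher (adjusted p = 4.59e-06). The potassium channel genes that rose were *Kcnk10* (2.50-fold), *Kcnmb4* (2.10-fold) and *Kcnv2* (2.08-fold). Without WT replicate 3 the potassium channel counts were again 6 lower and 3 higher.

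Pituitary hormones other than TSH did not pass the limma test. *Gh* stood at 104306, 87356, 159094 and 112135 CPM in WT and at 82874 to 114941 CPM in *Thrb*-KO libraries (log2 -0.27, adjusted p = 0.443), and the difference was log2 -0.11 without WT replicate 3. *Prl* stood at 15603, 14523, 53184 and 26905 CPM in WT and at 12031 to 20407 CPM in *Thrb*-KO libraries (log2 -0.58, adjusted p = 0.234), or log2 -0.19 without WT replicate 3. DESeq2 called it lower (log2 -0.91). *Pomc* (log2 -0.47, adjusted p = 0.293), *Fshb* (log2 -0.12, adjusted p = 0.649) and *Lhb* (log2 -0.15, adjusted p = 0.497) overlapped between genotypes. Of 20 tested genes of the growth hormone and prolactin axis, *Pou1f1* rose and *Igf1*, the growth factor that growth hormone induces in many tissues, fell. This compares with 2.54% and 2.32% of all genes tested. *Igf1* stood at 18.0, 26.5, 14.8 and 16.6 CPM in WT and at 5.91 to 9.46 CPM in *Thrb*-KO libraries, 2.25-fold lower (adjusted p = 0.000388). In bulk tissue, fewer cells of a type and less RNA per cell cannot be told apart. Markers of gonadotrophs summed to 952 to 1056 CPM in WT and 903 to 1005 CPM in *Thrb*-KO libraries, and those of thyrotrophs to 1236 to 2114 and 1632 to 1737 CPM. Most of the thyrotroph sum is *Cga* (1153 to 1652 CPM in WT), which gonadotrophs share, so it does not measure thyrotroph number. Called higher were 2 of 4 tested thyrotroph markers (*Trhr*, *Dio2*) and *Nr5a1* of 4 gonadotroph markers. *Pappa2* of 3 somatotroph and *Angpt1* of 3 lactotroph markers were also higher, and no marker of these types was called lower.

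Of 21 tested lineage transcription factors, *Nr5a1* and *Pou1f1* rose and *Neurod4* fell, where 2.54% of all genes tested rose and 2.32% fell. *Nr5a1*, of gonadotrophs, was 1.52-fold higher with overlapping groups (adjusted p = 0.00402) and lost its call without any of WT replicates 2 and 3 and *Thrb*-KO replicates 3, 4 and 5 (log2 0.54 to 0.58) and with TMM scaling (log2 0.54). *Neurod4*, a helix-loop-helix factor, fell 1.62-fold at 66.9 to 105 against 42.7 to 53.3 CPM (adjusted p = 0.00669), and its call ended without WT replicate 2 (log2 -0.55). None of the 13 tested genes of the POMC lineage was called, with a median of -0.061, and 1 fell without WT replicate 3.

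Genes of secretory granules and exocytosis leaned upward, with 4 of 33 tested members higher, 1 lower and a median of 0.303, and 28 of 33 above 0. Over all genes 2.54% were higher, the median was 0.069 and 8302 of 13145 were above 0, and without WT replicate 3 or with TMM 2 members of the list were higher. *Rph3a*, the Rab3 effector rabphilin, stood at 7.74, 11.1, 12.9 and 11.2 CPM in WT and at 23.2 to 29.6 CPM in *Thrb*-KO libraries, 2.38-fold higher (adjusted p = 6.44e-07). *Rab3c*, a Rab GTPase of secretory vesicles, was 1.82-fold higher at 101 to 174 against 52.1 to 96.1 CPM (adjusted p = 0.00479). *Ptprn*, a granule membrane protein, and *Syt1*, a calcium sensor of exocytosis, were 1.52-fold and 1.51-fold higher. *Ptprn* fell under the fold limit without WT replicate 2 or 3 or *Thrb*-KO replicate 3 or 5 (log2 0.54 to 0.58), and *Syt1* without WT replicate 3 or *Thrb*-KO replicate 2 or 3 (log2 0.46 to 0.58). With TMM scaling both did (log2 0.54 and 0.52). *Rab27b*, another Rab GTPase of secretory granules, went the other way at 43.4 to 67.3 CPM in WT and 26.6 to 34.1 CPM in *Thrb*-KO libraries, 1.88-fold lower (adjusted p = 3.65e-05). Among 10 tested neuropeptides, the opioid precursors *Pdyn* and *Penk* were higher, at 3.48 to 4.00 against 1.88 to 2.29 CPM (1.58-fold, adjusted p = 0.000106) and at 5.96 to 8.95 against 2.46 to 4.12 CPM (1.87-fold, adjusted p = 0.0094).

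**Figure D3:**
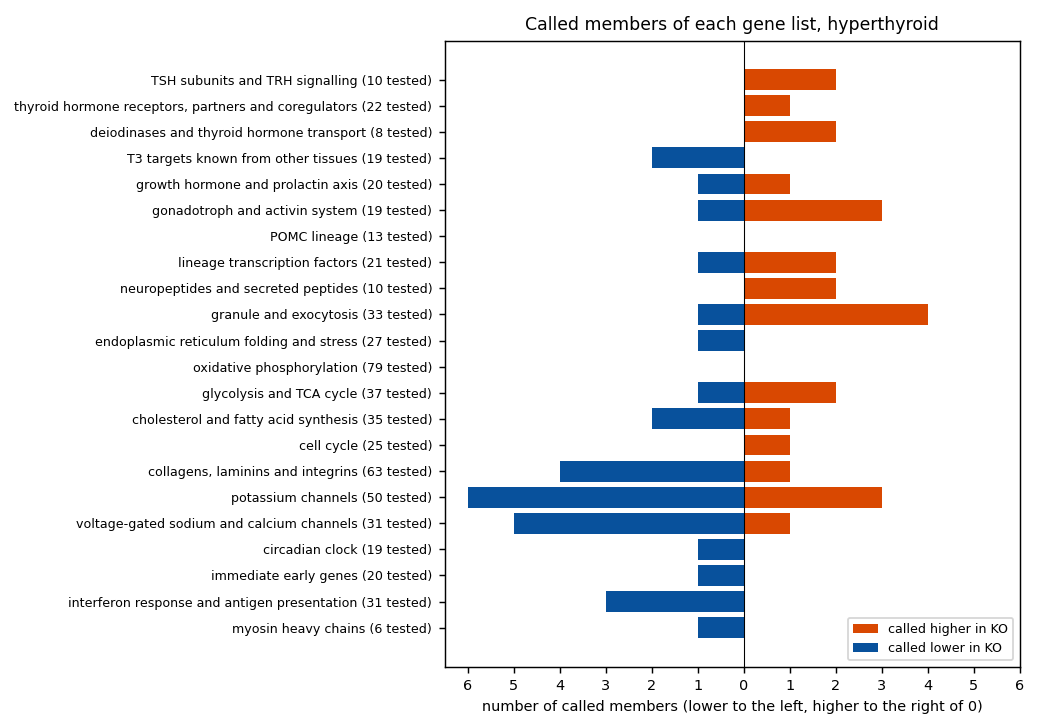
Number of members called lower (left of 0) and higher (right of 0) in hyperthyroid *Thrb*-KO libraries for each of 22 gene lists, with the number tested beside the name. Potassium channels hold the most called members, 6 lower and 3 higher of 50 tested, and oxidative phosphorylation and the POMC lineage hold none.

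Metabolic lists held few called members or none, beside 4.86% of all genes called in either direction, and their shares were not compared by a test. Oxidative phosphorylation had none among 79 tested members, with a median of -0.179 that turned to 0.119 without WT replicate 3, so its direction rests on that library. In glycolysis and the TCA cycle, 2 of 37 tested genes were higher and 1 was lower. *Pfkp*, a phosphofructokinase, and *Eno2*, the neuronal enolase, were higher at 52.0 to 64.5 against 33.2 to 37.2 CPM (1.67-fold, adjusted p = 7.78e-06) and at 70.1 to 88.2 against 40.6 to 56.7 CPM (1.69-fold, adjusted p = 6.91e-05). *Hk2*, a hexokinase, was 2.09-fold lower at 8.96 to 11.4 against 18.2 to 26.5 CPM (adjusted p = 2.33e-05). In cholesterol and fatty acid synthesis, 1 of 35 tested genes was higher and 2 were lower. *Elovl6*, a fatty acid elongase, was 1.88-fold higher at 68.6 to 92.6 against 34.7 to 53.6 CPM. *Acacb*, an acetyl-CoA carboxylase, stood at 91.1, 72.2, 38.2 and 59.4 CPM in WT and at 17.9 to 29.9 CPM in *Thrb*-KO libraries, 2.77-fold lower (adjusted p = 3.45e-05). *Mlxipl*, the carbohydrate-responsive transcription factor ChREBP, fell 1.60-fold at 10.5 to 14.9 against 5.95 to 9.18 CPM. Of 19 tested genes known as T3 targets in other tissues, *Myh7* and *Bcl3* fell and none rose. *Bcl3*, a regulator of NF-κB, stood at 11.4 to 12.8 CPM in WT and at 3.12 to 5.55 CPM in *Thrb*-KO libraries, 2.32-fold lower (adjusted p = 7.23e-06).

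Interferon and antigen presentation genes leaned downward, with 3 of 31 tested members lower, none higher, a median of -0.316 and 2 of 31 above 0. Over all genes 2.32% were lower and 8302 of 13145 were above 0. *Gbp3*, an interferon-induced GTPase of a family with similar sequences, stood at 57.3, 77.3, 67.0 and 139 CPM in WT and at 25.3 to 38.5 CPM in *Thrb*-KO libraries, 2.44-fold lower (adjusted p = 0.000937). *Isg15*, an interferon-induced ubiquitin-like protein, and *H2-Ab1*, a class II antigen-presenting chain, fell 1.58-fold and 1.54-fold. *Isg15* lost its call without WT replicate 3 or 4 (log2 -0.58 and -0.54), and *H2-Ab1* without any library but WT replicate 1 and *Thrb*-KO replicate 3 (log2 -0.47 to -0.64). Markers of macrophages and lymphocytes moved with this list: 1 of 6 tested, *C1qa*, was lower, their sum was 81.9 to 141 CPM in WT and 68.1 to 87.0 CPM in *Thrb*-KO libraries, and *Cd3e* and *Ms4a1* were below 1 CPM throughout. Their part in the result was not tested. The remaining lists each held at most 1 called gene. These were *Mcm2* (1.58-fold higher) of 25 cell cycle genes, *Trib3* (1.94-fold lower) of 27 endoplasmic reticulum genes, *Bhlhe40* (1.67-fold lower) of 19 clock genes and *Nr4a3* of 20 immediate early genes. *Nr4a3* ranged from 10.3 to 52.5 CPM in WT, overlapped with *Thrb*-KO at 5.79 to 11.2 CPM, and lost its call (adjusted p = 0.0483 in all libraries) on leaving out any library but WT replicate 3.

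To ask which differences depend on T3, the same genotype comparison was read in hypothyroid mice, which shares no library with it. Under MMI 133 genes (1.01%) were higher and 264 genes (2.01%) were lower in *Thrb*-KO than in WT libraries. Of the 334 genes higher under T3, 56 were also higher under MMI, 16.8% of the former and 42.1% of the latter. Of the 305 genes lower under T3, 52 were also lower under MMI, 17.0% of the former and 19.7% of the latter. A further 14 genes were higher under T3 and lower under MMI, and 6 were lower under T3 and higher under MMI. The difference between the genotype effects passed an adjusted p of 0.05 for 718 genes (5.46%), or 1079 without WT replicate 3 and 1418 with the replicate number as a block. Among them were 139 of the higher genes and 149 of the lower genes with an interaction of the same sign as their difference under T3. These include genes that changed direction, whose difference under MMI could be the larger in size. In each direction 2 had an interaction of the opposite sign. The genes were called on the difference under T3, which is part of the interaction, so a shared sign was likely in advance.

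The genes that changed direction included *Dio2*, *Trhr*, *Asb4*, *Gpr123* and *Kcnk10*. *Dio2* averaged 1069 CPM in hypothyroid WT and 689 CPM in hypothyroid *Thrb*-KO libraries, lower in *Thrb*-KO, against 36.9 and 172 CPM under T3, an interaction of 2.81 on the log2 scale (adjusted p = 1e-08). *Trhr* averaged 64.1 and 24.8 CPM under MMI against 2.88 and 5.24 CPM under T3 (interaction 2.04, adjusted p = 4.99e-07). *Asb4*, of the SOCS box family, averaged 315 and 153 CPM under MMI against 52.7 and 119 CPM under T3 (2.21), *Gpr123* 60.2 and 30.4 against 8.87 and 24.1 CPM (2.29), and *Kcnk10* 22.1 and 6.87 against 2.79 and 8.74 CPM (2.88). In these genes *Thrb*-KO means thus moved less between the thyroid states than WT means. In the opposite sense, *Slc6a11* averaged 24.6 and 44.0 CPM under MMI against 158 and 89.3 CPM under T3, and *Bcar3*, a signalling adaptor, 9.0 and 15.9 against 42.9 and 22.0 CPM (interaction -1.69).

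Another group passed the test under T3 and not under MMI, with a tested difference between the states. *Sspo* (interaction -4.69, adjusted p = 4.42e-10), *Bmp7* (-3.20), *Myh7* (-2.99), *Upk3a* (-2.89), *Cdc42ep2* (-2.61), *Cilp* (-2.12) and *Fndc5* (-2.09) were not called under MMI. *Nog* (2.19, adjusted p = 3.83e-07) and *Ehf* (1.82) were so in the upward direction, with means under MMI of 22.2 and 18.1 CPM for *Nog* and 9.85 and 9.62 CPM for *Ehf*. Other genes differed in both states. *Slc17a6* averaged 17.9 CPM in hypothyroid WT and 71.1 CPM in hypothyroid *Thrb*-KO libraries, *Gucy2f* 2.98 and 40.0 CPM, *Scn11a* 2.20 and 8.48 CPM, and *Rph3a* 10.7 and 23.4 CPM. *Kcnj11*, *Cacng2* and *Cacng5* were lower in *Thrb*-KO in both states, with log2 differences under MMI of -1.32, -0.95 and -1.74.

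**Figure D4:**
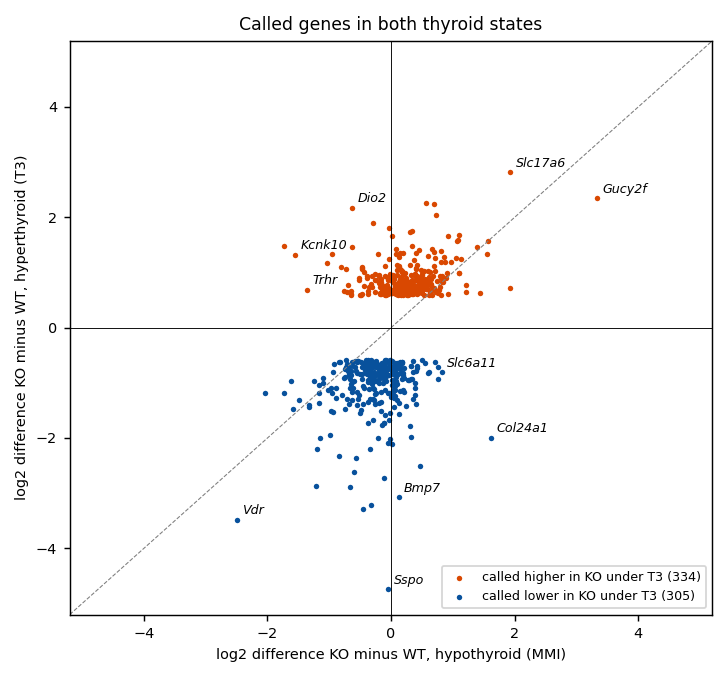
Each point is a gene called under T3, placed by its log2 difference, *Thrb*-KO minus WT, in hypothyroid (horizontal) and hyperthyroid (vertical) pituitary, and the dashed line marks equal differences. *Sspo* and *Bmp7* lie near 0 horizontally, *Vdr* and *Gucy2f* are far from 0 on both axes, and *Dio2* and *Kcnk10* are on opposite sides of 0.

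To relate the genes to chromatin, TRβ-HAB peaks were counted within 20 kb of each gene. TRβ-HAB is a receptor tagged for biotin labelling, and its 8051 peaks came from untreated pituitary, so they show binding in another thyroid state. These peaks came from mice with the tagged receptor and the BirA ligase, on a mixed strain background. The ATAC-seq peaks used below came from hypothyroid and hyperthyroid mice, also of mixed background. They cover only pituitary nuclei labelled through a Cre driver at *Thrb*. Of the 302 lower genes with a position, 194 (64.2%) had a TRβ-HAB peak, as did 159 of 329 higher genes (48.3%) and 41.3% of all genes tested. For a TRβ-HAB peak that overlapped 1 of the 1776 ATAC-seq peaks regulated by T3, the shares were 68 of 302 lower genes (22.5%), 18 of 329 higher genes (5.47%) and 4.27% of all genes tested. For a T3-regulated ATAC peak of any kind they were 27.8%, 13.1% and 7.81%. These shares are descriptions without a test. Gene length also enters them, and its part was not tested.

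**Figure D5:**
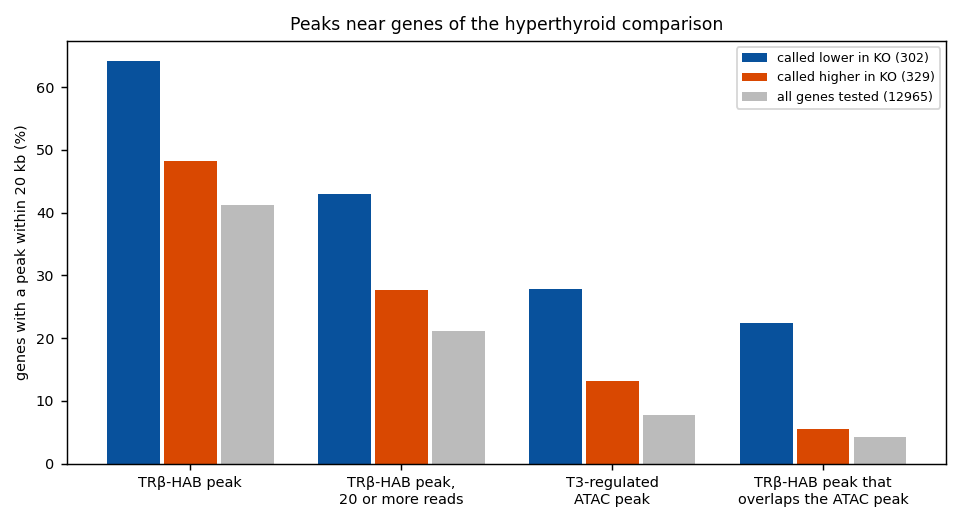
Percent of genes that have a peak no farther than 20 kb away, for the 302 lower genes, 329 higher genes and 12965 genes tested that have a position, by kind of peak. The bars for lower genes are the tallest in each group, and the gap to all genes is 22.5% against 4.27% where a TRβ-HAB peak overlaps a T3-regulated ATAC peak.

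The DR4 element, AGGTCA repeated with 4 bases between, is a known binding motif of thyroid hormone receptors with RXR. It was searched on both strands with at most 2 mismatches in the 12 fixed bases. It was found in 102 of 348 TRβ-HAB peaks near lower genes (29.3%), 68 of 301 near higher genes (22.6%) and 20.9% of all 8051 peaks. As a measure of its frequency, 3.02% of 32851 promoters of 300 bases (RefSeq, GRCm38.p6) held a match, beside 18.9% of the 4608 TRβ-HAB peaks of at most 300 bases. Peaks near lower genes also held more reads, with a median of 21 against 18 over all peaks. The part of reads and peak length in the shares was not tested. The sites below were chosen for a DR4 match in a TRβ-HAB peak that overlaps a T3-regulated ATAC peak near a lower gene. They cover genes with the largest falls, and *Ceacam16* and *Kcnk5* besides. Other such matches, as near *Bcl3* and *Whrn*, are not shown, and the peaks of this kind near *Trib3* and *Gbp3* held no match. The AGGTCA-like hexamers are in capitals, and coordinates are those of mm9.
Sspo, minus strand, chr6:48442916-48442931: AGGTCTcctaAGGCCA
Myh6 and Myh7, plus strand, chr14:55587347-55587362: GGGTCAgcttGGGTCA
Col4a3 and Col4a4, minus strand, chr1:82586967-82586982: AGGGCAtgcaGGGTCA
Bmp7, minus strand, chr2:172767536-172767551: TGGTCAccggAGGTCA
Tspan18, plus strand, chr2:93117841-93117856: AGGTCAtgccAGGTCC
Slc4a5, plus strand, chr6:83196057-83196072: AAGTCAcatcAGGGCA
Gpr83, minus strand, chr9:14689243-14689258: AGGTCAcgtgAGGACG
Ceacam16, minus strand, chr7:20449783-20449798: AGGTGAggtaAGGTCA
Kcnk5, plus strand, chr14:20954709-20954724: AGGTCCctcaAGTTCA

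By GENCODE annotation, the sites of *Sspo*, *Col4a3*, *Tspan18* and *Slc4a5* lay in introns, and that of *Ceacam16* lay upstream of its gene in the peak with the most reads of these (168 HAB;BirA reads against 9 BirA control reads). The *Bmp7* site was upstream too, in a peak 1629 bases from the gene (16 against 3 reads). The *Myh6* and *Myh7* site was in a single peak between these neighbours (41 against 9 reads), 1337 bases upstream of *Myh6* and 1925 bases downstream of *Myh7*. The *Col4a3* and *Col4a4* site was likewise in a peak that both share (61 against 2 reads), within *Col4a3* and 3377 bases upstream of *Col4a4*. The sites of *Gpr83* and *Kcnk5* lay downstream of their genes. The 250 bases of the *Sspo* peak, which held 27 HAB;BirA reads against 4 control reads, read on the minus strand of chr6:48442801-48443050 as follows, with the hexamers in capitals.
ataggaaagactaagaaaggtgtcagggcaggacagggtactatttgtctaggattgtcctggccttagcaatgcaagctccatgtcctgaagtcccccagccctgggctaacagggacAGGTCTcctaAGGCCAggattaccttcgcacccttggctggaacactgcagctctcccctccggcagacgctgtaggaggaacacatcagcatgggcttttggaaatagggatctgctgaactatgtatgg

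Peaks were not a feature of every strong difference. *Dio2*, *Trhr*, *Slc17a6*, *Vdr*, *Nog* and *Upk3a* had no TRβ-HAB peak within 20 kb, and *Dock6* had 1, with a DR4 match and no regulated ATAC peak. The higher genes *Thrb*, *Tmem200a*, *Gbgt1*, *Synpo2*, *Ugt8a* and *Arhgap6* had the largest rises among those with a TRβ-HAB peak that overlaps a T3-regulated ATAC peak. *Synpo2*, an actin-binding protein, was 2.35-fold higher at 21.5 to 42.4 against 7.99 to 18.6 CPM (adjusted p = 0.000744), *Ugt8a*, an enzyme of galactolipid synthesis, 2.02-fold, and *Arhgap6* 1.98-fold. The *Thrb* peak, in an intron of the gene at chr14:18506801-18507150, counted 57 reads of HAB;BirA and 4 of control libraries and held the DR4-like sequence AGGTCAcataATGACA on the plus strand. *Foxo6* had 7 TRβ-HAB peaks, 2 of them overlapping a regulated ATAC peak, and *Gh* had 3, none of which did. *Gh* still had 1 regulated ATAC peak within 20 kb, apart from these.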

How the data were processed

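The RNA-seq table held CPM per RefSeq transcript of mm9, which the authors made from single-end reads mapped with BBMap. Whole reads were recovered from the CPM steps (100% of values whole within 0.05 read) and summed to 21453548 to 44458073 reads per hyperthyroid library. The authors called TRβ-HAB peaks with SICER 1.1 (per the labels) on merged libraries and deposited read counts, p-values and fold ratios against BirA libraries, and the ATAC list holds the authors' p-values for T3 regulation without direction. The cortex peak list and the authors' calls were not used for comparisons.

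The transcript with the highest mean CPM stood for each gene. limma 3.58.1 in R 4.3.3 (lmFit, eBayes with trend) was run on log2(CPM + 1) in 1 model of 4 groups and 18 libraries, over genes above 1 CPM in all libraries. Fold changes are on this log2(CPM + 1) scale and understate the change of low genes, and adjusted p-values are Benjamini-Hochberg values over all genes. Genes were called at an adjusted p under 0.05 and 1.5-fold. The script was tested on simulated data. As an alternative on recovered reads, edgeR 4.0.16 with TMM called 301 genes higher and 489 lower. DESeq2 1.42.0, other scalings, filters, pseudocounts and sample sets were also tried.

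The main fit did not pair the samples, and the replicate number entered as a block only in an alternative fit. Deviations from group means correlated at 0.691, 0.667, 0.384 and 0.257 between same-numbered WT and *Thrb*-KO libraries, replicates 1 to 4. For replicates 1 and 2 the best other number reached 0.621 and 0.661, so the values do not establish a pairing. Replicates 3 and 4 correlated better with another number (0.486 and 0.682). Named genes are listed genes of the thyroid axis and hormones, the 12 largest non-overlapping changes per direction, up to 4 called members per list and direction, 6 per direction below the filter, 6 per direction with both peak kinds, 8 per direction of interaction and 6 per direction with most reads. *Abcc8* was added after its values were seen. Members and lists were chosen with earlier results of these data known. Coordinates are mm9 with GENCODE genes. Some genes of the lists are not reported here.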

Additional observations from a re-analysis of the deposited data

Results flagged for a closer look

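Among 226 groups of libraries of the named genes, 7 held a library set apart from the rest of its group by its gap, a number below the 1 in 20 that chance gives. *Thrb*-KO replicate 3 was the highest of its group for *Pomc* (5391 CPM, others 3001 to 3333 CPM), *Bhlhe40* (39.7 CPM, others 33.4 to 35.1 CPM) and *Dock6* (76.2 CPM, others 59.2 to 60.4 CPM). WT replicate 3 was the lowest for *Cacng5* (4.01 CPM, others 4.67 to 4.76 CPM) and *Bcar3* (34.6 CPM, others 45.3 to 46.2 CPM). WT replicate 1 was the lowest for *Tmem45b* (8.64 CPM, others 10.4 to 10.5 CPM), and WT replicate 4 the highest for *Asb4* (68.3 CPM, others 46.7 to 47.9 CPM).

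The genotype difference differed between the thyroid states in an interaction test with limma (adjusted p under 0.05). On the log2 scale, *Thrb*-KO minus WT under T3 exceeded that under MMI by 1.26 for *Thrb*, 2.04 for *Trhr*, 2.81 for *Dio2*, 2.19 for *Nog*, 1.82 for *Ehf*, 2.88 for *Kcnk10*, 2.29 for *Gpr123*, 2.21 for *Asb4* and 1.10 for *Gng4*, a G protein subunit. It was lower under T3, with an interaction of -4.69 for *Sspo*, -2.89 for *Upk3a*, -3.20 for *Bmp7*, -2.61 for *Cdc42ep2*, -2.99 for *Myh7*, -2.09 for *Fndc5*, -2.12 for *Cilp*, -1.69 for *Bcar3* and -1.17 for *Foxo6*. In the fit of 14472 genes the interaction was -1.89 for *Ceacam16* and -5.84 for *Myh6*. These 2 values are given with no test, because only a high level in hyperthyroid libraries admitted the genes. The *Thrb*-KO and WT means behind these are in the text above for most of them, and *Gng4* averaged 193 and 150 CPM in hypothyroid WT and *Thrb*-KO libraries against 88.7 and 148 CPM under T3.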

How the results depend on the processing

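The counts of 334 higher and 305 lower genes became 1021 and 565 with no fold limit and 70 and 109 at 2-fold. Lower genes numbered 489 by edgeR with TMM, 507 by edgeR with DESeq2 size factors and 590 by DESeq2. A pseudocount of 5 gave 201 higher and 195 lower genes, and replicates 3 to 5 alone gave 694 higher genes. Leaving out each library gave 264 to 403 higher and 280 to 387 lower genes, the extremes of 264 and 387 without WT replicate 3. The 718 interaction genes became 602 to 1079 on leaving out each library (1079 without WT replicate 3), 1418 with the replicate block, 1584 with the library set as a term, 2603 with that term and without WT replicate 3, and 1101 with TMM scaling and without WT replicate 3, the last pair chosen after seeing the data. The causes were not tested. The replicate block moved no other count by over 1.5 times, and among named genes it changed the call of *Foxo6* alone (log2 -0.586). *Thrb* stayed above WT at log2 1.17 to 1.43 on leaving out each library.

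Among the named genes that were not called, *Tshb* ranged from -0.634 to 0.483 on leaving out each library and turned upward without WT replicate 3 (0.483), WT replicate 4 (0.271) or *Thrb*-KO replicate 2 (0.106), with replicates 1 and 2 alone (0.953), and without WT replicate 3 when the library set was a term (0.250) or CPM was rescaled by TMM (0.464). *Cga* reached 0.138 without WT replicate 3 and turned downward with edgeR (-0.060 and -0.073), DESeq2 (-0.073), TMM (-0.033), without WT replicate 2 (-0.035) and in replicates 3 to 5 (-0.115). *Fshb* turned upward in replicates 3 to 5 (0.001), and *Ky* without WT replicate 1 (0.010), WT replicate 2 (0.018) or *Thrb*-KO replicate 3 (0.016), against -0.140 without WT replicate 3. Of the named genes that were called, none changed sign in these alternatives. The share of lower genes with a TRβ-HAB peak was 55.6% within 5 kb, 85.8% within 100 kb and 43.0% for peaks of 20 or more reads, that of higher genes 37.1%, 72.6% and 27.7%, and that of all genes tested 30.3%, 70.8% and 21.1%. With a regulated ATAC peak, the shares within 100 kb were 30.8% and 10.6%, beside 10.5% of all genes tested. Low read numbers limit *Myh6*, *Tmem45b* and the other genes under 1 CPM.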
